A study of Bos taurus with 6 samples.

Results

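The piRNA pathway genes described here are the 10 genes of the table of genes that carry the symbols PIWIL1, PIWIL2, PIWIL4, DDX4, MAEL, TDRD1, TDRD5, TDRD6, TDRD9 and MOV10L1. They were chosen by name, and all 10 were found among the 47249 entries of the table. The study sequenced total RNA of testes from untreated local cattle (Wandong breed), depleted of ribosomal RNA, and made 1 library from each animal. The groups were 3 immature calves aged 3 months and 3 andrologically mature bulls aged 3 years, and the libraries keep the numbers of their titles (calf 1, 2 and 3 and bull 1, 2 and 3). Each library stands for a slice of whole testis, so that germ cells and somatic cells were measured together.

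Piwi-interacting RNAs (piRNAs) are small RNAs of germ cells that guide PIWI proteins to the transcripts and genomic copies of transposons. In the cytoplasm, long precursor transcripts are handed by RNA helicases to nucleases on mitochondria, and the products are loaded into PIWI proteins, which carry methylated arginines and are held in granules by Tudor domain (TDRD) proteins. In the mouse testis, PIWIL4 acts in the nucleus of fetal and newborn germ cells, where it directs DNA methylation, whereas PIWIL1 is loaded with the abundant piRNAs of pachytene spermatocytes and is kept in round spermatids. PIWIL2 is present from fetal germ cells through spermatogenesis.

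The levels are FPKM values (fragments scaled to the length of the transcript and to the size of the library), which the authors deposited without counts, so that the depth behind a value is unknown. Because FPKM is scaled to length, the levels of different genes can be set side by side. The library labelled calf 3 stood apart from calf 1 and calf 2. In calf 3, 6 of the 8 Sertoli cell markers listed were below an FPKM of 1, with FSHR, WT1 and GATA4 at 0, whereas SOX9 was at 13.7 and CLDN11, which oligodendrocytes also express, was at 429, its highest level among the 6 libraries. The 6 Leydig cell markers summed to an FPKM of 0.502 against 1404 in calf 1 and 1123 in calf 2. The 8 markers of oligodendrocytes, astrocytes and neurons summed to 13683 against 6.90 to 12.8 in the other 5 libraries. The values of calf 3 therefore go against its label, and fold changes are given with and without it. The summed FPKM over all genes ranged from 587066 in calf 3 to 1098715 in calf 2.

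In the bulls, the germ cell helicase DDX4, MAEL and PIWIL1 were the most abundant of the 10 genes, and PIWIL4 was the least abundant. In calf 1 and calf 2 the order was different, with PIWIL4 in the third place and PIWIL1 in the last. In calf 3 all 10 genes lay below an FPKM of 1, from 0 for PIWIL2 and TDRD5 to 0.464 for TDRD9. The summed FPKM of the 10 genes was 69.1, 84.0 and 1.28 in calves 1, 2 and 3, and 694, 721 and 732 in bulls 1, 2 and 3. In bulk tissue, fewer cells of a type and less RNA per cell cannot be told apart, and this holds for every level below.

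**Figure D1:**
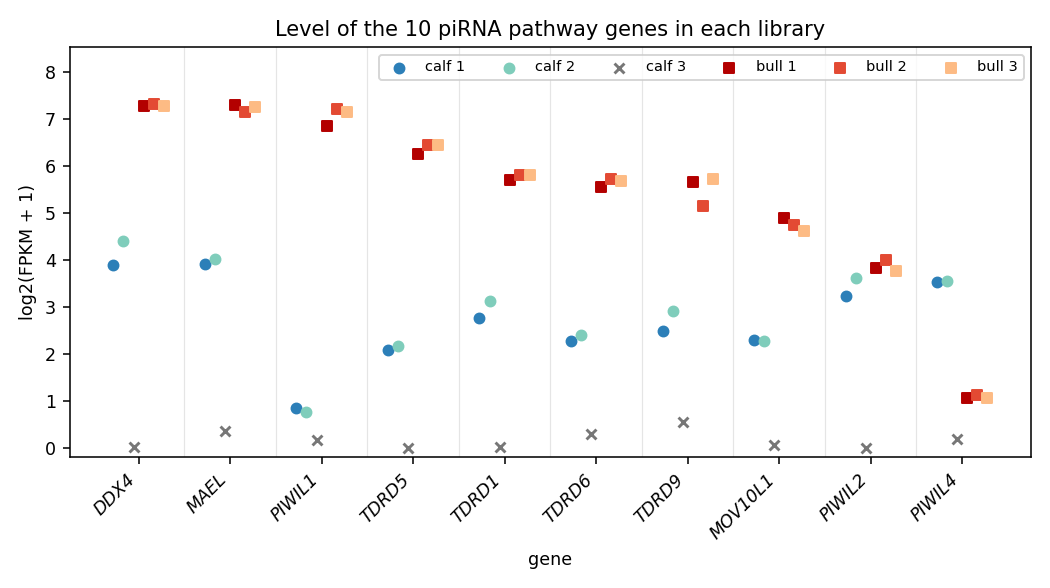
Level of the 10 piRNA pathway genes in each library, as log2(FPKM + 1) on the vertical axis, with the genes ordered by their mean FPKM in bulls. Circles are calf 1 and calf 2, crosses are calf 3 and squares are the 3 bulls. PIWIL4 is the gene whose bulls lie below calf 1 and calf 2, and calf 3 lies below an FPKM of 1 for each gene.

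The comparison of bulls with calves asks which of these genes changed between the immature and the mature testis. All 10 genes passed the filter on low values, an FPKM of 1 or more in 3 or more of the 6 libraries. PIWIL1 was below that level in each calf and passed through the bulls alone. A linear model on log2(FPKM + 1) was fitted over all genes with limma, and a gene was called where the Benjamini-Hochberg adjusted p was below 0.05 and the log2 fold change was 1 or more in either direction. With all 6 libraries, 8 of the 10 genes were called higher in bulls, against 35.7% of the 18115 genes tested, and 0 lower, against 9.61%. At an unadjusted p below 0.05 the number lower in bulls was also 0. Without calf 3, the same 8 genes were called higher, against 37.9% of all genes, and PIWIL4 was called lower, against 13.6%. The median log2 fold change of the 10 genes was 3.91, and 2.99 without calf 3, whereas the median over all genes tested was 0.43 in both fits. For 9 of the 10 genes, PIWIL4 being the exception, the 3 bulls lay above the 3 calves, which was found for 46.1% of the genes tested. Against calf 1 and calf 2 alone, the bulls lay above for 9 genes (53.5% of all genes) and below for PIWIL4 (30.9%). The direction of the calls over all genes depended on the scaling of the libraries. As deposited, the bulls had 6474 higher and 1741 lower calls, against 3827 and 4538 after quantile normalization and 5073 and 3701 after scaling to a common upper quartile, and the median of all genes moved to −0.26 and −0.09. The 8 genes kept a log2 fold change of 1.89 or more under each of the 18 alternatives computed.

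Several markers of other germ cell stages moved with the groups. The 9 spermatocyte markers in the table summed to an FPKM of 20.7, 28.3 and 2.88 in calves 1, 2 and 3 and to between 309 and 355 in bulls. Of these markers, 9 of 9 were called higher in bulls, against 35.7% of all genes tested, and 7 of 9 without calf 3, against 37.9%. SPO11 and OVOL1 were below an FPKM of 1 in each calf and passed the filter through the bulls alone. The 8 markers of round spermatids summed to between 2.93 and 8.91 in calves and between 595 and 677 in bulls, and the 8 markers of elongating spermatids to between 9.20 and 11.4 in calves and between 14573 and 16111 in bulls. All 16 were called higher in bulls, against 35.7% of all genes tested. Of the 8 round spermatid markers, 3, 3 and 1 reached an FPKM of 1 in calves 1, 2 and 3. Of the 8 elongating spermatid markers, 1 did so in each calf. Markers below that level in each calf passed the filter through the bulls alone, which favoured a higher call. The 8 Sertoli cell markers summed to 1796 and 1490 in calf 1 and calf 2, to 444 in calf 3 and to between 188 and 224 in bulls. CLDN11 made up 429 of the sum in calf 3 and ran against the others, at 0.940 and 18.2 in calf 1 and calf 2 and between 62.8 and 84.0 in bulls. Without calf 3, the other 7 Sertoli cell markers were called lower in bulls, against 13.6% of all genes, and CLDN11 higher, against 37.9%. With calf 3 none of the 8 was called. The part of these shifts in the changes of the piRNA pathway genes was not tested.

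PIWIL1 (ENSBTAG00000006468) lies on chromosome 17 from 46727461 to 46762107 and encodes the PIWI protein of the meiotic and early haploid stages. Its FPKM was 0.811, 0.695 and 0.118 in calves 1, 2 and 3, and 116, 148 and 142 in bulls 1, 2 and 3. The groups lay far apart, and each calf was below an FPKM of 1. PIWIL1 therefore passed the filter through the bulls alone, which favoured a higher call. The log2 fold change was 6.49 (SE, standard error, 0.24, limma adjusted p = 9.04e-06), and 6.27 (SE 0.14, adjusted p = 6.97e-07) without calf 3, the largest change among the 10 genes in both fits. On the FPKM scale, the mean of the bulls was 180-fold that of calf 1 and calf 2.

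PIWIL2 (ENSBTAG00000015835, chromosome 8, 69591401 to 69669500), which encodes the PIWI protein that is present across most germ cell stages, had an FPKM of 8.44 in calf 1, 11.2 in calf 2 and 13.2, 14.9 and 12.5 in the bulls. It was listed at 0 in calf 3. The bulls lay above calf 1 and calf 2 by a small margin. With all libraries, the log2 fold change was 1.58 (SE 0.95, limma adjusted p = 0.206), and the gene was not called. Without calf 3, it was 0.43 with a 95% interval of 0.05 to 0.82 (adjusted p = 0.0423), below the fold change required for a call. The sign of this difference depended on the scaling, since it was −0.12 and −0.17 without calf 3 after quantile normalization and after scaling to a common upper quartile (adjusted p = 0.464 and 0.296, limma).

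PIWIL4 (ENSBTAG00000014910, chromosome 15, 15850059 to 15905090), the nuclear PIWI protein of early germ cells, went the other way. Its FPKM was 10.5 in calf 1 and 10.7 in calf 2, against 1.10, 1.17 and 1.09 in the bulls, and 0.134 in calf 3. Calf 1 and calf 2 were above each bull, and calf 3 was below each bull. With all libraries, the log2 fold change of −1.34 (SE 0.93, limma adjusted p = 0.264) did not pass the test. Without calf 3, PIWIL4 fell by 2.45 on the log2 scale (SE 0.13, limma adjusted p = 1.61e-05). The mean FPKM of calf 1 and calf 2 was 9.48-fold that of the bulls. Without calf 3, the fold change lay between −3.22 and −2.07 under the scalings and the pseudocount tried, and the gene was called lower in each. In these fits, between 1399 and 5275 of all 18115 genes tested were called lower.

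**Figure D2:**
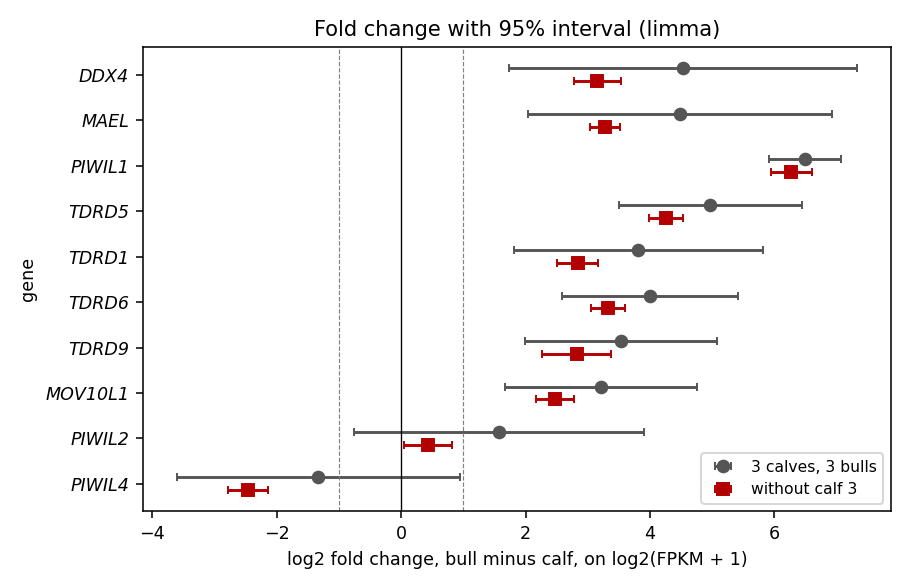
Log2 fold change (bull minus calf, on the log2(FPKM + 1) scale) of the 10 piRNA pathway genes with its 95% interval from limma. Grey circles are the fit of 3 calves and 3 bulls, red squares the fit without calf 3, and dashed lines mark the fold change required for a call. Without calf 3 the intervals are narrower, and PIWIL4 is the gene on the negative side at −2.45.

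The proportions among the PIWI genes can be read within each library, where the scaling between libraries plays no part. A further gene of the family, PIWIL3, was included in the sum. In calf 1 and calf 2, PIWIL4 held 51.9% and 46.4% of the summed FPKM of the 4 genes, PIWIL2 held 41.6% and 48.7%, and PIWIL1 held 3.99% and 3.01%. In bull 1, bull 2 and bull 3, PIWIL1 held 88.6%, 88.7% and 90.1%, PIWIL2 held 10.1%, 8.96% and 7.94%, and PIWIL4 held 0.842%, 0.705% and 0.691%. The ranges of calf 1 and calf 2 did not overlap with those of the bulls for any of these 3 genes. For levels such a separation was common, with the bulls above both calves for 53.5% of all genes and below for 30.9%. Shares of the same sum are also not independent. The share of PIWIL2 was lower in bulls although its FPKM as deposited was higher. In calf 3, the 4 genes summed to an FPKM of 0.252, and their shares were not read.

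**Figure D3:**
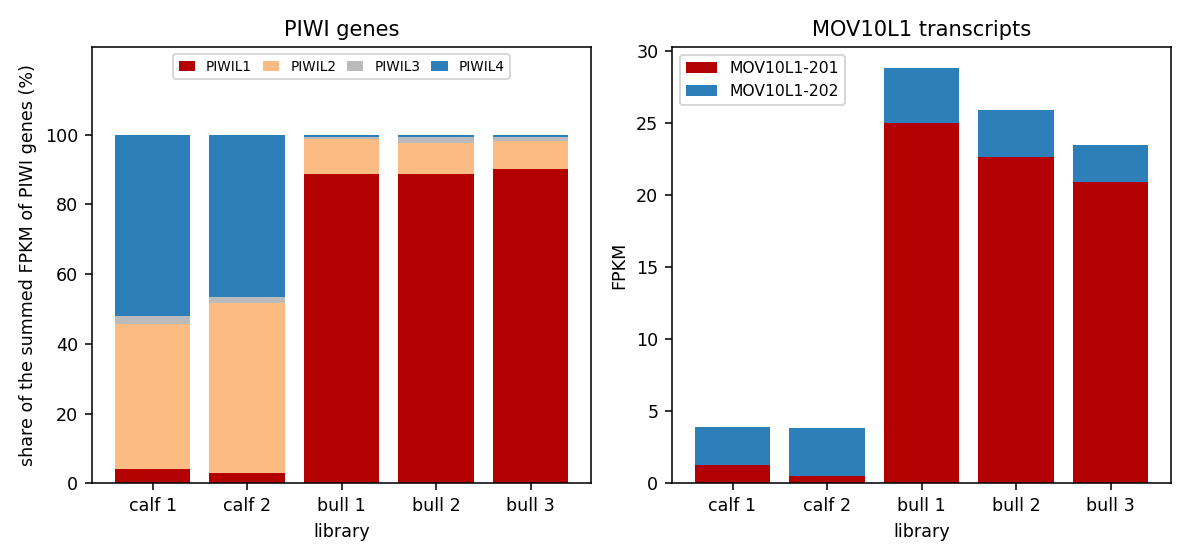
Left, share of each PIWI gene in the summed FPKM of the 4 PIWI genes (percent) in calf 1, calf 2 and the 3 bulls. Right, FPKM of the transcripts MOV10L1-201 and MOV10L1-202 in the same libraries, stacked. PIWIL2 and PIWIL4 make up most of the bars of the calves and PIWIL1 at least 88.6% of those of the bulls, and MOV10L1-202 lies between an FPKM of 2.61 and 3.80 in all 5 libraries while MOV10L1-201 reaches 20.9 to 25.0 in bulls.

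Among the helicases, DDX4 (ENSBTAG00000008871, chromosome 20, 23358630 to 23424574), the vertebrate homolog of Vasa and a marker of germ cells, had an FPKM of 13.98, 20.15 and 0.0152 in calves 1, 2 and 3. In the bulls it was at 156, 160 and 156, a narrow range above all calves. The log2 fold change was 4.53 (SE 1.14, limma adjusted p = 0.0163), and 3.15 (SE 0.16, adjusted p = 1.20e-05) without calf 3. With calf 3 in the fit, the call of DDX4 was lost when bull 1, bull 2 or bull 3 was left out (adjusted p = 0.0585, 0.0578 and 0.0577, limma) and with a pseudocount of 0.1 (adjusted p = 0.0540). Without calf 3 it was called under each of the scalings and the pseudocount tried.

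MOV10L1 (ENSBTAG00000020341, chromosome 5, 119477604 to 119540110), the helicase that binds piRNA precursors and feeds them into processing, was at an FPKM of 3.91, 3.81 and 0.0341 in the calves and 28.8, 25.9 and 23.5 in the bulls. All bulls were above all calves. Its log2 fold change was 3.22 (SE 0.63, limma adjusted p = 0.00596), and 2.47 without calf 3 (SE 0.13, adjusted p = 1.37e-05). TDRD9 (ENSBTAG00000020402, chromosome 21, 68460812 to 68581286), a helicase with a Tudor domain that takes part in transposon silencing, had an FPKM of 4.57, 6.60 and 0.464 in the calves and 50.0, 34.6 and 52.2 in the bulls. Bull 2 was the lowest bull for TDRD9, still above each calf. The log2 fold change was 3.54 (SE 0.63, limma adjusted p = 0.00401), and 2.82 (SE 0.23, adjusted p = 8.37e-05) without calf 3.

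MAEL (ENSBTAG00000016550, chromosome 3, 1829693 to 1886128), which encodes maelstrom, a protein of germ cell granules needed for transposon silencing, had an FPKM of 14.01, 15.28 and 0.276 in the calves and 156, 143 and 153 in the bulls. The bulls were about as far above calf 1 and calf 2 as for DDX4. Its log2 fold change was 4.48 (SE 0.996, limma adjusted p = 0.0100), and 3.28 (SE 0.10, adjusted p = 1.72e-06) without calf 3.

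The other three Tudor proteins are scaffolds of the granules. TDRD5 (ENSBTAG00000002407, chromosome 16, 60817250 to 60896041), which is required for the assembly of the chromatoid body of spermatids, was at an FPKM of 3.22 and 3.52 in calves 1 and 2, was listed at 0 in calf 3, and reached 75.9, 86.4 and 86.8 in the bulls. Its log2 fold change of 4.97 (SE 0.60, limma adjusted p = 0.000756), and 4.26 without calf 3 (SE 0.11, adjusted p = 1.09e-06), was second to that of PIWIL1. TDRD6 (ENSBTAG00000009978, chromosome 23, 19903408 to 19922053), another component of the chromatoid body, had an FPKM of 3.84, 4.29 and 0.226 in the calves and 45.9, 52.4 and 50.7 in the bulls. The log2 fold change of TDRD6 was 4.003 (SE 0.58, limma adjusted p = 0.00162), and 3.32 (SE 0.11, adjusted p = 2.85e-06) without calf 3. TDRD1 (ENSBTAG00000006855, chromosome 26, 34653339 to 34692090), a binding partner of PIWIL2, had an FPKM of 5.78, 7.70 and 0.0102 in the calves and 51.3, 55.3 and 55.1 in the bulls. Its log2 fold change was 3.81 (SE 0.81, limma adjusted p = 0.00853), and 2.84 (SE 0.14, adjusted p = 1.04e-05) without calf 3. For these Tudor genes, too, all bulls lay above all calves.

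The order of the levels was compared within groups. In bulls, the mean FPKM was 157 ± 2.74 for DDX4, 150.5 ± 7.04 for MAEL and 135 ± 17.0 for PIWIL1 (SD, n = 3), and the ranges of neighbours in this order overlapped. TDRD5 followed at 83.0 ± 6.18, apart from PIWIL1 and from TDRD1 at 53.9 ± 2.27 (SD, n = 3). TDRD1, TDRD6 at 49.7 ± 3.34 and TDRD9 at 45.6 ± 9.57 overlapped with their neighbours, and MOV10L1 at 26.1 ± 2.66, PIWIL2 at 13.6 ± 1.22 and PIWIL4 at 1.12 ± 0.0450 each lay apart (SD, n = 3). In calf 1 and calf 2, the order of the means was DDX4 (17.1), MAEL (14.6), PIWIL4 (10.6), PIWIL2 (9.84), TDRD1 (6.74), TDRD9 (5.58), TDRD6 (4.07), MOV10L1 (3.86), TDRD5 (3.37) and PIWIL1 (0.753). There, the ranges overlapped between DDX4 and MAEL, PIWIL4 and PIWIL2, TDRD1 and TDRD9, and TDRD6 and MOV10L1.

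To see whether the genes kept their proportions to DDX4, a gene that germ cells express at most stages, each FPKM was divided by that of DDX4 in the same library. Calf 3 was not read here, because DDX4 was at an FPKM of 0.0152 in it. For MAEL, the ratio was 1.003 and 0.758 in calf 1 and calf 2 and between 0.889 and 1.003 in bulls, and for TDRD9 it was 0.327 in both calves and between 0.216 and 0.335 in bulls. In both cases the values of calves and bulls overlapped. TDRD1, at 0.413 and 0.382 in calves and between 0.329 and 0.354 in bulls, and TDRD6, at 0.275 and 0.213 against 0.295 to 0.326, differed little without overlap. The ratio of MOV10L1 was 0.280 and 0.189 in calves and between 0.151 and 0.185 in bulls.

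Larger shifts against DDX4 were found for 4 genes. The ratio of PIWIL1 went from 0.0580 and 0.0345 in calf 1 and calf 2 to between 0.743 and 0.919 in bulls, so that its mean ratio was 18.6-fold higher in bulls. The ratio of TDRD5 went from 0.231 and 0.175 to between 0.487 and 0.557, or 2.60-fold higher. The ratio of PIWIL2 was 0.604 and 0.557 in calves and between 0.0806 and 0.0929 in bulls, a mean ratio that was 6.74-fold higher in calf 1 and calf 2. The ratio of PIWIL4 was 0.754 and 0.532 in calves and between 0.00701 and 0.00731 in bulls, 90.2-fold higher in calf 1 and calf 2. In the test set for these ratios, an exact permutation test of log2((FPKM + 1)/(FPKM of DDX4 + 1)) over all 6 libraries (two-sided, 20 labelings), p was 0.1, the smallest this design allows, for PIWIL2, PIWIL4, TDRD1, TDRD9 and MOV10L1 (0.18 after Benjamini-Hochberg adjustment over 9 genes). It was 0.4 for PIWIL1 and 0.6 for TDRD5. For each of the 9 genes, PIWIL2 and PIWIL4 included, calf 3 with all of its levels near 0 gave a log2 ratio near 0. That value comes mostly from the pseudocount, so the p-values rest in part on it. Calf 3 also widened the differences of TDRD1, TDRD9 and MOV10L1, which were −0.72, −0.99 and −1.31 with it and −0.32, −0.33 and −0.68 without it. The plain ratios of TDRD9, without a pseudocount, overlapped between the bulls and calf 1 with calf 2. Without calf 3 the mean differences (bull minus calf) on this log2 scale were 3.12 for PIWIL1, 1.11 for TDRD5, −2.72 for PIWIL2 and −5.61 for PIWIL4. With calf 3 those of PIWIL2 and PIWIL4 were −2.95 and −5.87.

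**Figure D4:**
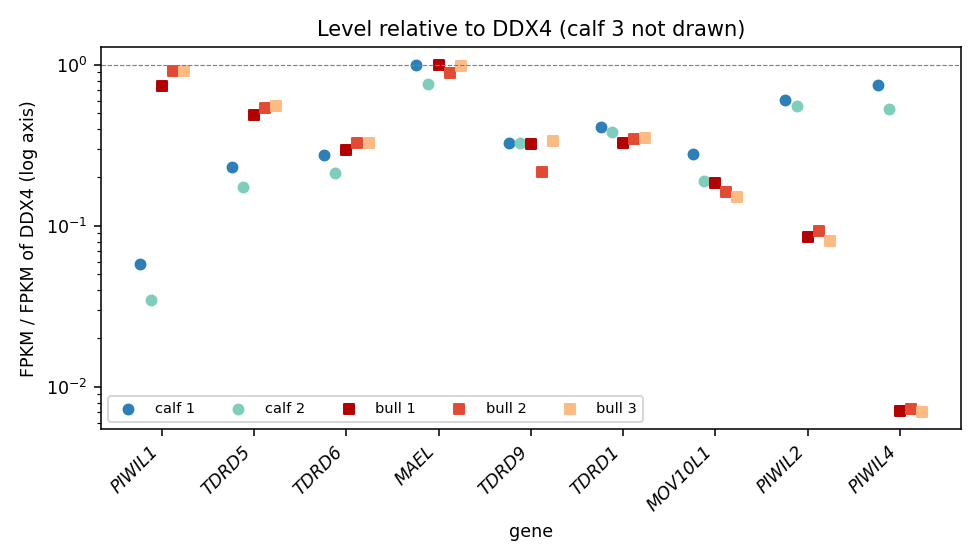
FPKM of the other 9 genes divided by the FPKM of DDX4 in the same library, on a log axis, in calf 1 and calf 2 (circles) and the 3 bulls (squares), ordered by the change between calves and bulls. PIWIL1 and TDRD5 are on the left, with ratios that are higher in bulls, and PIWIL2 and PIWIL4 on the right, with ratios that are lower in bulls.

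The table of transcripts holds 23 entries for the 10 genes, of which 16 passed the filter. With all libraries, 13 of the 16 were called higher in bulls, against 34.8% of the 23212 transcripts tested, and 0 lower, against 9.37% (0 at an unadjusted p below 0.05). The higher calls include the transcript of PIWIL1 and the entries of TDRD6 and TDRD9 assembled from the reads. Each of these was below an FPKM of 1 in every calf and passed the filter through the bulls alone. Without calf 3, 13 were called higher (36.1% of all transcripts) and 1 lower (13.1%), which was the single transcript of PIWIL4. PIWIL1, PIWIL2, PIWIL4 and MAEL had 1 entry each, so that their transcripts repeat the values of the genes.

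The entries of MOV10L1 did not move alike. MOV10L1-201 (ENSBTAT00000073834, chromosome 5, 119477604 to 119539815) was at an FPKM of 1.25, 0.473 and 0.0133 in the calves and 25.0, 22.7 and 20.9 in the bulls. MOV10L1-202 (ENSBTAT00000027109, chromosome 5, 119477604 to 119540110) had 2.66, 3.34 and 0.0208 in the calves and 3.80, 3.27 and 2.61 in the bulls. The bulls thus exceeded the calves for MOV10L1-201 and overlapped with calf 1 and calf 2 for MOV10L1-202. The log2 fold change of MOV10L1-201 was 3.99 (adjusted p = 0.000159, limma), and 3.71 without calf 3, with a 95% interval of 3.16 to 4.26. For MOV10L1-202 it was 0.73 (adjusted p = 0.325, limma), and 0.08 without calf 3, with a 95% interval of −0.42 to 0.57. MOV10L1-202 held 68.1% and 87.6% of the FPKM of the gene in calf 1 and calf 2 and between 11.1% and 13.2% in bulls. The difference between the 2 changes was not tested. The third entry, MOV10L1-203, was listed at 0 in all libraries. The entries share most of their span, and how the fragments are divided among them is an estimate of the authors' software.

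DDX4 had 3 entries. DDX4-202 was the main one, with 85.9% and 95.4% of the FPKM of the gene in calf 1 and calf 2 and between 73.1% and 86.1% in bulls, and these ranges overlap. DDX4-201 had an FPKM of 1.70, 0.921 and 0 in the calves and 32.8, 22.2 and 40.4 in the bulls, and the calls of both entries were higher in bulls. The log2 fold changes of DDX4-201 and DDX4-202 were 4.205 and 4.28 (adjusted p = 0.000403 and 0.0193, limma) with all libraries, and 3.81 and 2.95 (adjusted p = 0.000250 and 0.000198) without calf 3, so that the order of these changes depended on that library. In TDRD9, the entry TDRD9-203 held between 59.3% and 63.1% of the gene in calf 1, calf 2 and the bulls and TDRD9-202 between 24.9% and 31.6%, with little shift between calves and bulls. TDRD5-201 had an FPKM of 7.63 in bull 2 and was listed at 0 in the other 5 libraries, and TDRD5-202 held all of the FPKM of the gene in calf 1, calf 2, bull 1 and bull 3.

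Some of the FPKM of TDRD9 and TDRD6 was assigned to entries other than their Ensembl transcripts. TDRD9-OT1, an entry assembled from the reads (chromosome 21, 68460812 to 68467697), lies over the span of ATP5MPL, a gene with an FPKM between 386 and 408 in bulls. It held 11.4% and 12.02% of the FPKM of TDRD9 in calf 1 and calf 2, between 6.48% and 9.19% in bulls and 76.6% in calf 3. For TDRD6, the Ensembl transcript TDRD6-201 held between 85.3% and 89.3% of the gene in calf 1, calf 2 and the bulls and was listed at 0 in calf 3, where 2 entries assembled from the reads made up the whole FPKM of 0.226. The values of TDRD9 and TDRD6 in calf 3, 2 of the 3 highest among the 10 genes there, were therefore mostly or wholly of assembled entries. The gene SLC25A27 overlaps the 2 assembled entries of TDRD6 but not TDRD6-201. Its FPKM peaked at 8.84 in calf 3, and calf 1 came next with 2.14. RD3L covers the positions of TDRD9-202 and TDRD9-203. It had an FPKM of 0.945, 1.03 and 1.48 in the calves and 3.29, 3.02 and 4.16 in the bulls. Whether fragments of these genes entered the values of TDRD6 and TDRD9 was not tested. MOV10L1 shares its span with 4 other entries of the table, none above an FPKM of 1.44. No other entry overlapped PIWIL1, PIWIL2, PIWIL4, DDX4, MAEL, TDRD1 or TDRD5.

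Further genes of the pathway were taken from a list of 23, of which 20 were in the table and the other 3 (BTBD18, DNMT3L and MORC1) were not analysed here. PIWIL3, with an FPKM of at most 0.504 in calves and between 0.571 and 2.77 in bulls, did not pass the filter, and 19 genes were tested. Of these, 11 were called higher in bulls with all libraries (background 35.7%) and 0 lower (9.61%, and 0 at an unadjusted p below 0.05). Without calf 3, 11 were called higher (37.9%), 1 lower (13.6%) and 7 were not called. The median log2 fold change of the list was 1.77, and 1.57 without calf 3, below the medians of the 10 genes above.

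The genes called higher include partners of PIWI proteins. GTSF1, a small zinc finger protein that assists PIWI proteins in cutting their targets, had an FPKM of 14.8, 17.9 and 0.114 in the calves and 274, 273 and 270.4 in the bulls, where it exceeded each of the 10 genes. FKBP6, a co-chaperone of piRNA loading, was at 7.86, 14.6 and 0.315 in the calves and 150, 168 and 156 in the bulls. Their log2 fold changes were 5.30 and 4.81 (adjusted p = 0.00724 and 0.00483, limma), and 3.99 and 3.75 without calf 3. RNF17, another Tudor protein, went from 7.02, 9.26 and 0.0189 in the calves to 47.9, 43.9 and 41.4 in the bulls (log2 fold change 3.37, adjusted p = 0.0184, limma, and 2.32 without calf 3). With calf 3 in the fit, the call of RNF17 was lost without bull 1, bull 2 or bull 3 (adjusted p = 0.0666, 0.0622 and 0.0607, limma) and with a pseudocount of 0.1 (adjusted p = 0.0658).

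Among the factors of precursor processing, PLD6, the nuclease on the mitochondrial surface, GPAT2, TDRKH and EXD1 were called higher in bulls. Their log2 fold changes were 2.38, 2.68, 2.38 and 3.11 (adjusted p between 0.000149 and 0.00403, limma), and 2.01, 2.13, 2.26 and 2.86 without calf 3. The Tudor genes TDRD7 and TDRD12 had smaller changes of 1.73 and 1.34 (adjusted p = 0.000694 and 0.000935, limma), and 1.57 and 1.28 without calf 3. The call of TDRD12 was lost after quantile normalization (0.67) and upper quartile scaling (0.90), also without calf 3 (0.62 and 0.82), and that of TDRD7 without calf 3 after upper quartile scaling (0.97). In contrast, ASZ1, HENMT1, which methylates the ends of piRNAs, and PNLDC1, which trims them, were not called. Their log2 fold changes were 1.35, 0.62 and 0.55 with all libraries (adjusted p = 0.250, 0.211 and 0.211, limma) and 0.27, 0.22 and 0.20 without calf 3, with 95% intervals that included 0. HENMT1 was at an FPKM of 4.41 and 5.70 in calves 1 and 2 and between 5.23 and 6.99 in bulls, an overlap of the groups. STK31, PRMT5 and WDR77 had bulls above all calves, with log2 fold changes of 0.91, 0.59 and 0.48 without calf 3 (adjusted p = 0.00176, 0.00534 and 0.0117, limma), below the fold change required for a call. With all libraries these were 2.15, 0.81 and 0.62 (adjusted p = 0.126, 0.0273 and 0.0321, limma), also not called.

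MYBL1, the transcription factor (A-MYB) that drives piRNA precursors and several pathway genes at pachytene in the mouse, had an FPKM of 6.39, 5.40 and 4.64 in the calves and 19.8, 23.3 and 18.6 in the bulls. All bulls were above all calves, and the log2 fold change was 1.74 (adjusted p = 0.000393, limma). TCFL5, a further transcription factor of spermatocytes, was at 5.60, 4.65 and 15.2 in the calves and 80.5, 91.6 and 75.9 in the bulls (log2 fold change 3.30, adjusted p = 0.000884, limma). Both were also called without calf 3, at 1.64 and 3.77.

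SPOCD1 and TEX15, which work with PIWIL4 in the DNA methylation of transposons in fetal germ cells of the mouse, were not called higher. SPOCD1 had an FPKM of 16.4 and 22.2 in calves 1 and 2, was listed at 0 in calf 3 and was at 6.93, 7.12 and 9.49 in the bulls. It was not called with all libraries (log2 fold change 0.25, adjusted p = 0.873, limma) and was called lower without calf 3, where it fell by 1.196 on the log2 scale (adjusted p = 0.00161). Without calf 3 and with the libraries scaled to a common total, that change was −0.72 and SPOCD1 was not called. TEX15 was at 21.6 and 29.7 in calf 1 and calf 2, at 0.0309 in calf 3 and between 23.2 and 33.5 in bulls. With all libraries the log2 fold change was 1.77 (adjusted p = 0.287, limma). The groups overlapped without calf 3, and it was then 0.21 with a 95% interval of −0.30 to 0.73 (adjusted p = 0.389, limma).

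**Figure D5:**
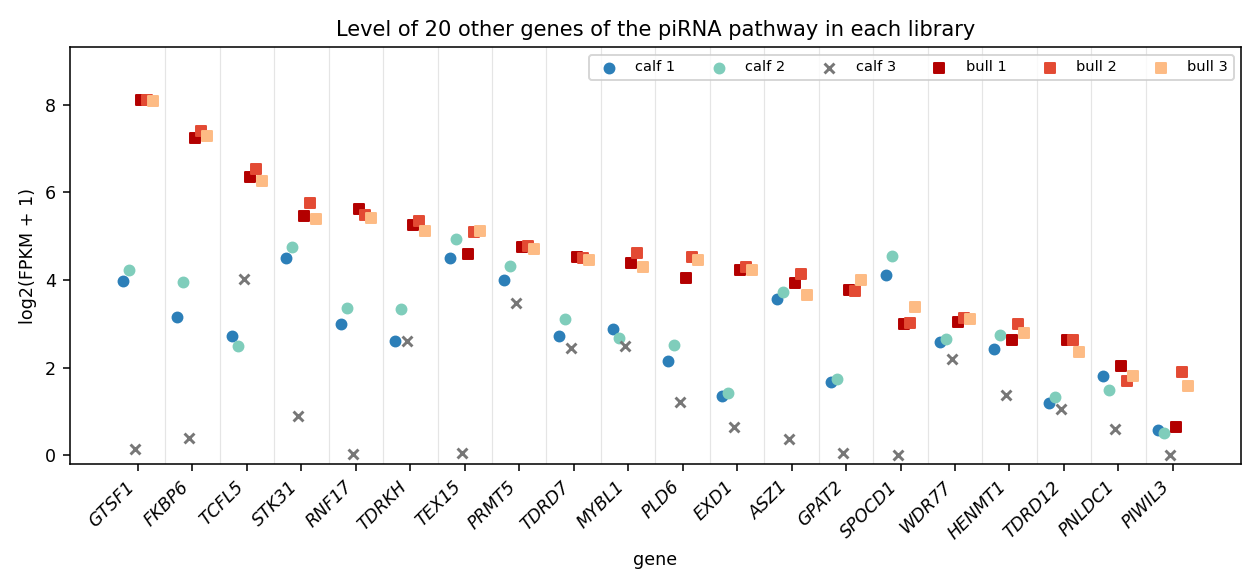
Level of 20 other genes of the piRNA pathway in each library, as log2(FPKM + 1), ordered by the mean FPKM in bulls. Circles are calf 1 and calf 2, crosses calf 3 and squares the bulls. GTSF1, TCFL5 and FKBP6 have the widest gaps between both of calf 1 and calf 2 and the bulls, and SPOCD1 is the gene whose bulls lie below these calves.

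The genes whose pattern was most like that of the 10 were searched by the Pearson correlation of log2(FPKM + 1) with the mean of the 10 genes over the 6 libraries. The 5 highest among named genes outside the 10 were GTSF1, ZNF212, CEP85, SERF1A and PLK4, with r of 0.999 or more and rho between 0.771 and 1. Because the libraries fall into bulls, calf 1 with calf 2, and calf 3, these values mostly describe the differences between those 3 sets, and 1.31% of the genes tested had an r above 0.99. Over the 5 libraries without calf 3, that share was 19.6%, and the 5 highest were RAMAC, MLF1, CABS1, C8orf88 and CCDC181.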

How the data were processed

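Testis libraries of 3 calves and 3 bulls were compared as labelled, in tables with a value per library. Per the methods of the study, the authors discarded poor reads and those of ribosomal RNA (Bowtie2), mapped the rest with TopHat2, assembled transcripts with StringTie and deposited FPKM values for genes and transcripts. Cuffdiff and Ballgown are named there for circular RNAs, and the software behind the FPKM values of genes is not given in the sources used here. No counts are given, so precision was taken from the spread between animals. For all 10 genes the FPKM equalled the sum over their transcripts (tolerance 0.001). UMD3.1.1 is the assembly named there, but all 10 positions overlapped the locus of the same symbol in the RefSeq annotation of ARS-UCD2.0, and positions are printed as the table gives them, on an ARS-UCD assembly. Where entries shared a symbol in a marker list, the one with the largest sum was used.

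Features that reached an FPKM of 1 in 3 or more of the 6 libraries (18115 genes, 23212 transcripts) were tested on log2(FPKM + 1) with limma 3.58.1 in R 4.3.3 (empirical Bayes with trend, two-sided, Benjamini-Hochberg over all features tested). A pseudocount of 1 understates the change of low genes. The procedure was tested on simulated data. Alternatives were other scalings, pseudocounts, filters, array weights, a replicate block and the omission of each library. Fits without calf 3 combined with a scaling or pseudocount were chosen after seeing the data. The members and lists were chosen with earlier results of these data known. Named with values were all 10 members and, of the other pathway genes, those called or moving against their list, the largest changes first. Other named genes were chosen after their values were seen. Figures were drawn with matplotlib 3.10.9 in Python 3.11.15.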

Additional observations from a re-analysis of the deposited data

How the results depend on the processing

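Over the alternatives computed, 7 of the 8 genes called higher in bulls (all but DDX4) stayed called in each. The call of DDX4 was lost with a pseudocount of 0.1 (5.62, adjusted p = 0.0540, limma) and, with calf 3 present, when any 1 of the bulls was left out. PIWIL4 was called lower after quantile normalization (−2.32, adjusted p = 0.0457) and with array weights (−2.38, adjusted p = 0.000138), and without calf 3 at −2.45. With calf 3 left out, it was −3.22 after quantile normalization, −2.97 after upper quartile scaling, −2.07 with a common total and −3.14 with a pseudocount of 0.1. The number of the 10 genes called lower, 0 in the fit of all 6 libraries without scaling or weights, was 1 in each of these fits. Over all 18115 genes tested, between 1399 and 5275 were called lower in these fits. The number of transcripts of the 10 genes called lower was 1 with array weights and in the fits without calf 3. PIWIL2 changed sign to −0.12 and −0.17 with calf 3 left out after quantile normalization and upper quartile scaling. With each library left out in turn, log2 fold changes ranged from 3.15 to 5.34 for DDX4, from −2.45 to −0.77 for PIWIL4, from 0.43 to 2.24 for PIWIL2 and from 6.27 to 6.62 for PIWIL1. For DDX4, PIWIL1 and PIWIL2 the lowest value arose without calf 3, and for PIWIL4 the value nearest 0 arose without calf 2. Over the same omissions, members called higher ranged from 7 to 8 and lower from 0 to 1. Their transcripts ranged from 12 to 13 and from 0 to 1, and other pathway genes from 10 to 12 and from 0 to 1. Other pathway genes called higher numbered 9 with calf 3 left out after upper quartile scaling, and 13 with calf 3 left out and a common total.

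Other pathway genes called lower numbered 1 with array weights and, with calf 3 left out, after quantile normalization, upper quartile scaling and with a pseudocount of 0.1. Genes of the microRNA machinery called lower numbered 5 after quantile normalization and upper quartile scaling, 3 with a pseudocount of 0.1, 1 to 2 with a library left out, and 4 with calf 3 left out after either scaling, where 1 was called higher in place of 2. After the 2 scalings, 4538 and 3701 of all 18115 genes tested were called lower, and 5275 and 4762 with calf 3 left out. Over all genes, 5056 were called with a filter of FPKM 5 against 8215, since fewer genes were tested, and between 7318 and 9325 with a library left out. Relative to DDX4, the difference of MAEL was 0.12 without calf 3 and 0.0021 without bull 2 against −0.05, and that of TDRD6 was 0.17 without calf 3 against −0.53. With each library left out, they ranged from −0.23 to 0.12 and from −0.97 to 0.17. Fits that leave out calf 3 assume that calf 1 and calf 2 vary like the bulls. The labels state no pairing of calves and bulls by replicate number. The correlation of same-numbered deviations was between 0.025 and 0.034, and each calf correlated best with the bull of its number. With 3 libraries per group, these values cannot decide whether a batch was shared by number. The fit with the replicate number as a block called 8 of the 10 genes higher and 0 lower, and 8128 genes in all. The cause of these changes was not tested, and depth is unknown from FPKM.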

Other observations

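The genes of the microRNA and siRNA machinery, which process and use small RNAs outside the piRNA pathway, were counted in the same way. Of 10 genes tested, 2 were called higher and 1 lower in bulls with all libraries, against 35.7% and 9.61% of all genes, and the counts were equal without calf 3 (37.9% and 13.6%). The number lower was 5 after quantile normalization and after upper quartile scaling. Over all 18115 genes tested, lower calls then numbered 4538 and 3701, against 1741 as deposited. With the values as deposited, the lower calls were thus near their share of all genes. The median log2 fold change of the list was −0.43 (−0.25 without calf 3), against 0.43 over all genes. AGO2, the Argonaute protein that can cut its targets, had an FPKM of 10.1, 8.75 and 6.44 in the calves and 30.0, 30.3 and 32.4 in the bulls (log2 fold change 1.78, adjusted p = 0.000461, limma). Without calf 3, its change was 0.98 after quantile normalization, below the fold change required, against 1.62 as deposited. XPO5, the exporter of microRNA precursors, rose as well (1.65, adjusted p = 0.000223, limma, and 1.67 without calf 3). AGO4 was at 6.73, 4.38 and 5.61 in the calves and 0.703, 0.684 and 0.608 in the bulls and was called lower (−1.97, adjusted p = 0.000268, limma, and −1.95 without calf 3). AGO1 and AGO3 had log2 fold changes of −0.92 and −1.25 (adjusted p = 0.00891 and 0.0516, limma) and were not called with all libraries. All bulls lay below all calves for both, as was found for 21.3% of the genes tested. The FPKM of AGO3 was 6.02, 5.55 and 18.2 in calves 1, 2 and 3. Without calf 3, the changes were −0.82 and −0.75 (adjusted p = 0.00520 and 0.00277), again not called. Both were called lower after quantile normalization (−1.56 and −1.91) and upper quartile scaling (−1.44 and −1.78). Of the 4 Argonaute genes, AGO2 was the one with a higher level in bulls than in calves.

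Somatic relatives of 2 of the genes were read for comparison. DDX3X, a ubiquitous helicase related to DDX4, had an FPKM of 69.3, 80.4 and 63.5 in the calves and 26.8, 25.2 and 26.9 in the bulls, a log2 fold change of −1.39 (adjusted p = 0.000489, limma), −1.47 without calf 3, and −0.97 with calf 3 left out and a common total, below the fold change required. MOV10, the relative of MOV10L1, was at 15.03, 20.87 and 1.18 in the calves and 10.2, 9.30 and 10.2 in the bulls (log2 fold change 0.25, adjusted p = 0.821, limma, and −0.78 without calf 3, not called). With calf 3 left out, MOV10 was called lower after quantile normalization (−1.43) and upper quartile scaling (−1.40).

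Of the spermatogonial markers, 8 were tested. With all libraries 2 were called higher and 1 lower in bulls, against 35.7% and 9.61% of all genes, and without calf 3, 2 were called higher and 2 lower, against 37.9% and 13.6%.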
